A study of Mus musculus with 21 samples.

Results

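Titin (Ttn), nebulin (Neb), slow skeletal troponin I (Tnni1) and filamin C (Flnc) are genes of the striated muscle sarcomere, and their RNA was measured here in sorted mouse dendritic cells (DCs). They are 4 of the 55471 genes in the deposited count table. They were chosen by gene symbol with their measured levels across the 7 groups already known, so their own values in every comparison are given as a description, without a test. All 4 were found in the table, and all 4 passed the filter on low counts in the fit of the bone marrow libraries and in the fit of all libraries, whereas only Ttn and Neb passed it in the fit of the lymph node libraries.

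The sarcomere is the contractile unit of striated muscle, in which thick filaments of myosin slide past thin filaments of actin. Titin spans from the Z-disc to the M-band and acts as a molecular spring, nebulin runs along the thin filament of skeletal muscle, slow skeletal troponin I is the inhibitory subunit of the calcium switch on the thin filament of slow fibres, and filamin C crosslinks actin at the Z-disc and the costamere. Autoantibodies against titin occur in people with thymoma-associated myasthenia gravis, and Aire, the autoimmune regulator, is best known for driving the expression of tissue-restricted genes in medullary thymic epithelial cells.

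The libraries came from male C57BL/6 mice of 6 weeks that all carried AGF-KI, an Aire reporter allele, and there were 3 biological replicates in each of 7 groups. From lymph node, cells gated as positive for CD45, CD11c and MHCII gave reporter-positive cells of AGF-KI/- mice (AGF+ AireKO) and of AGF-KI/+ mice (AGF+ KI/+), and reporter-negative cells of each genotype (AGF− AireKO and AGF− KI/+). From bone marrow, the B220− CD24+ fraction with no or low CD11b gave AGF+ AireKO and AGF+ KI/+ cells, and the B220− CD11c+ MHCII+ fraction of KI/+ mice gave a population titled total DC, which the design text calls AGF−. The gates of the bone marrow populations therefore differ in more than the reporter.

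Libraries held 4164451 to 6055097 counts, so that 0 counts in a library allow at most 0.456 to 0.764 counts per 1000000 counts (CPM, over library sizes scaled by edgeR's TMM factors), for counting error only. The summed level of 10 DC markers was 6998 to 14200 CPM in the 21 libraries, with Cd74, the invariant chain of MHC class II, highest in every group. Aire itself had 25.2 ± 2.10 CPM in lymph node AGF+ AireKO cells and 114 ± 16.6 CPM in lymph node AGF+ KI/+ cells, and 14.5 ± 4.47 CPM in bone marrow AGF+ AireKO cells and 101 ± 19.1 CPM in bone marrow AGF+ KI/+ cells (SD, n = 3 each). The 7 libraries numbered 2, 1 in each group, went against the label of male mice: Xist had 2022 to 3994 CPM and the Y-linked genes 0 to 0.766 CPM in them, against 0 to 31.1 CPM and 329 to 567 CPM in the other libraries. Since each group has 1 such library, they are kept, and results that move without them are given with and without. Errors throughout are standard deviations over 3 libraries unless called SE.

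The deposited files hold no sequence, and the promoters of 3 of the 4 genes were found in RefSeq (GRCm38.p6), where Neb had no entry. The 250 bases before a transcription start are shown because levels of the same gene differed between the groups by up to 2 orders of magnitude. Capitals mark matches, on either strand, to 6 motifs known from muscle or general promoters: the E-box CANNTG, the MEF2 box, the CArG box, the TATA box TATAAA, the MCAT element CATTCC and the GC box GGGCGG. Ttn lies on the minus strand of chromosome 2, and its stretch is chr2:76982548-76982797. The stretch of Tnni1 is chr1:135799171-135799420, plus strand, and that of Flnc is chr6:29432903-29433152, plus strand. RefSeq gives a further start for Tnni1 and for Flnc, not printed.
Ttn: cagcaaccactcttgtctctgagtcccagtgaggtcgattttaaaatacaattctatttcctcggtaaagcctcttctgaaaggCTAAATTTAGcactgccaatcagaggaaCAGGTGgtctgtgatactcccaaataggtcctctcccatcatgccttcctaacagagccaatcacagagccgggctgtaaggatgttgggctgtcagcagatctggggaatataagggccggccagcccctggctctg
Tnni1: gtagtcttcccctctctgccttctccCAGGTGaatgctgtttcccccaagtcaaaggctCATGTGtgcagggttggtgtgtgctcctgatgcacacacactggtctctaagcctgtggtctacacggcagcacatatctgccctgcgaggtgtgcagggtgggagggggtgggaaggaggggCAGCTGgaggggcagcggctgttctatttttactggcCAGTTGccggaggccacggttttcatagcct
Flnc: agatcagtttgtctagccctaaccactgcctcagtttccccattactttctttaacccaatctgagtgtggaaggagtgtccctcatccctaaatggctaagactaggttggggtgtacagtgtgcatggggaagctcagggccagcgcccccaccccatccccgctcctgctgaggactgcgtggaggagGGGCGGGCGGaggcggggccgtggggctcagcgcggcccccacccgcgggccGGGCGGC
The Ttn stretch holds a MEF2 box that begins 166 bases before the start and an E-box that begins 138 bases before it, and a CATTCC begins at base 12 after the start, outside what is printed. The Tnni1 stretch holds 4 E-boxes, at 224, 191, 68 and 31 bases before the start. The Flnc stretch holds 3 GC boxes, of which the pair at 59 and 55 bases overlap, and its last capital is the first base of a CATTCC that runs across the start. Of 32851 RefSeq promoter windows of 300 bases, 72.3% held an E-box, 3.19% a MEF2 box, 1.63% a CArG box, 13.6% a TATAAA, 14.7% a CATTCC and 35.7% a GC box. None of the 3 windows held a TATAAA or a CArG box. A match describes letters only.

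Ttn encodes the largest known protein of vertebrates, and its exons, merged over 25 annotated transcripts, cover 117 kb of chr2:76703980-76982547 (mm10, GENCODE vM21) in 345 blocks. It had 6084, 6983 and 5842 CPM in lymph node AGF+ AireKO cells, and 3991, 6414 and 5881 CPM in lymph node AGF+ KI/+ cells. In lymph node AGF− cells it had 540, 622 and 690 CPM in AireKO and 440, 578 and 742 CPM in KI/+. All 6 AGF+ libraries lay above all 6 AGF− libraries, while the genotypes overlapped in each sort. In bone marrow Ttn had 1019, 1354 and 1543 CPM in AGF+ AireKO cells and 1157, 1180 and 1200 CPM in AGF+ KI/+ cells, against 55.2, 27.3 and 39.8 CPM in total DCs. Every bone marrow AGF+ library was thus above every total DC library and above every lymph node AGF− library, and below every lymph node AGF+ library.

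These levels put a sarcomere gene among the most counted genes of the lymph node AGF+ cells. Ttn took 0.601% to 0.738% of all counts in lymph node AGF+ AireKO libraries and 0.422% to 0.697% in lymph node AGF+ KI/+ libraries, and it ranked 3 or 4 among all genes by count in each of these 6 libraries. Counts grow with transcript length, so levels were also taken per kilobase, which assumes even coverage of the merged exons. Per kilobase of exon the level was 54.0 ± 5.15 CPM in AGF+ AireKO and 46.5 ± 10.9 CPM in AGF+ KI/+ cells, and 93.6% to 97.7% of the genes that passed the filter over all libraries were lower per kilobase. In bone marrow total DCs the level per kilobase was 0.349 ± 0.120 CPM, with 9.17% to 12.8% of those genes lower.

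On the log2 scale of the fitted model, Ttn differed by 3.35 ± 0.22 (SE) between lymph node AGF+ and AGF− cells of AireKO mice and by 3.21 ± 0.22 (SE) in KI/+ mice, which are 10.2-fold and 9.24-fold. Bone marrow AGF+ KI/+ cells differed from total DCs, also of KI/+ mice, by 4.87 ± 0.25 (SE), or 29.2-fold. Lymph node AGF+ cells differed from bone marrow AGF+ cells by 2.27 ± 0.23 (SE) in AireKO and by 2.20 ± 0.23 (SE) in KI/+. Between genotypes the differences, AireKO minus KI/+, were 0.20 ± 0.20 (SE) in lymph node AGF+, 0.06 ± 0.20 (SE) in lymph node AGF− and 0.15 ± 0.21 (SE) in bone marrow AGF+ cells, none of them beyond the overlap of the libraries. In lymph node the higher level in AGF+ cells was thus seen within each genotype. Bone marrow had no total DCs of AireKO mice, so there the comparison within a genotype is of KI/+ cells only.

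Neb, whose product sets the length of thin filaments in skeletal muscle, ran the other way. It lies at chr2:52136647-52378474, minus strand, with 26.6 kb of exon. In bone marrow it had 184, 145 and 173 CPM in AGF+ AireKO cells and 105, 114 and 112 CPM in AGF+ KI/+ cells, against 398, 634 and 664 CPM in total DCs. The 3 bone marrow groups did not overlap: total DCs were highest and AGF+ KI/+ cells lowest. In lymph node Neb had 3.84, 3.81 and 2.25 CPM in AGF+ AireKO cells and 2.05, 3.5 and 5.24 CPM in AGF+ KI/+ cells, 11 to 24 counts a library. In AGF− cells it had 8.02, 6.91 and 26.0 CPM in AireKO and 6.21, 5.85 and 10.4 CPM in KI/+. All AGF− libraries lay above all AGF+ libraries, and replicate 3 of AGF− AireKO, with 134 counts, stood apart from the other AGF− libraries, which had 28 to 49 counts.

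The bone marrow difference in Neb between AGF+ KI/+ cells and total DCs was −2.35 ± 0.18 (SE) on the log2 scale, 5.09-fold lower in AGF+ cells. In lymph node it was −2.02 ± 0.50 (SE) in AireKO, or −1.17 without that replicate 3, and −1.09 ± 0.51 (SE) in KI/+. The reporter differences of Neb and Ttn thus had opposite signs in the 3 comparisons. Lymph node minus bone marrow AGF+ cells gave −5.64 ± 0.41 (SE) in AireKO and −4.98 ± 0.40 (SE) in KI/+, the widest tissue difference of the 4 genes. Bone marrow AGF+ AireKO minus KI/+ cells gave 0.61 ± 0.18 (SE), with no overlap of the libraries. How many of all genes have libraries without overlap there was not counted. By adjusted p, a stricter measure, 0.0129% of 15503 genes were called in that comparison. In that library of lymph node AGF− AireKO cells the summed level of 8 B cell markers was 1007 CPM, the highest of the 21 libraries, and that of 10 T and NK cell markers 450 CPM, second to replicate 1 at 600 CPM. Their part in the Neb level was not tested.

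Tnni1, at chr1:135779434-135810989 with 3.60 kb of exon, was a gene of the bone marrow AGF+ cells. It had 20.3, 24.1 and 23.4 CPM in AGF+ AireKO cells and 29.8, 47.3 and 38.5 CPM in AGF+ KI/+ cells, against 2.56, 1.43 and 1.35 CPM in total DCs. The libraries of the 3 groups did not overlap. In lymph node it had 25 counts over 3 libraries in AGF+ AireKO, 35 in AGF+ KI/+, 15 in AGF− AireKO and 7 in AGF− KI/+ cells, or 0.484 to 2.05 CPM on average, and no library there was as high as the lowest bone marrow AGF+ library. Bone marrow AGF+ KI/+ cells minus total DCs gave 4.44 ± 0.27 (SE) on the log2 scale, 21.7-fold. Bone marrow AGF+ AireKO minus KI/+ cells gave −0.77 ± 0.20 (SE), 1.70-fold lower in AireKO. As for Neb, the number of all genes whose libraries part between these genotypes was not counted. By adjusted p (edgeR's quasi-likelihood test) 0.0129% of 15503 genes were called there, and nothing is read from the Tnni1 difference. Lymph node minus bone marrow AGF+ cells gave −3.81 ± 0.29 (SE) in AireKO and −4.24 ± 0.27 (SE) in KI/+.

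Flnc, the muscle filamin, at chr6:29433256-29461883 with 9.40 kb of exon, was found in total DCs of bone marrow and was near the limit of detection elsewhere. It had 2.07, 1.28 and 0.51 CPM in bone marrow AGF+ AireKO cells and 0.204, 0.574 and 0.892 CPM in bone marrow AGF+ KI/+ cells, against 16.8, 42.8 and 28.4 CPM in total DCs. These stood on 19 counts in all, 9 counts in all and 435 counts in all. The 4 lymph node groups had 4, 8, 1 and 2 counts over 3 libraries (AGF+ AireKO, AGF+ KI/+, AGF− AireKO and AGF− KI/+), 5 of the 12 libraries had none, and no difference between them was detectable at this depth: AGF+ over AGF− was 4.11-fold in AireKO and 3.24-fold in KI/+, with 95% counting intervals of 0.407 to 203 and 0.647 to 31.3. Bone marrow AGF+ KI/+ cells minus total DCs gave −5.62 ± 0.51 (SE) on the log2 scale, 49.0-fold lower in AGF+ cells. Lymph node minus bone marrow AGF+ cells gave −2.30 ± 0.97 (SE) in AireKO and −0.26 ± 0.97 (SE) in KI/+, and the KI/+ value was −2.56 without replicate 3 of lymph node AGF+ KI/+, which held 7 of the 8 counts. Leaving out 1 library at a time moved it between −2.56 and 0.35, so its sign is not settled. In bulk samples, fewer cells that carry a transcript and less of it per cell cannot be told apart, for this and every gene here.

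**Figure D1:**
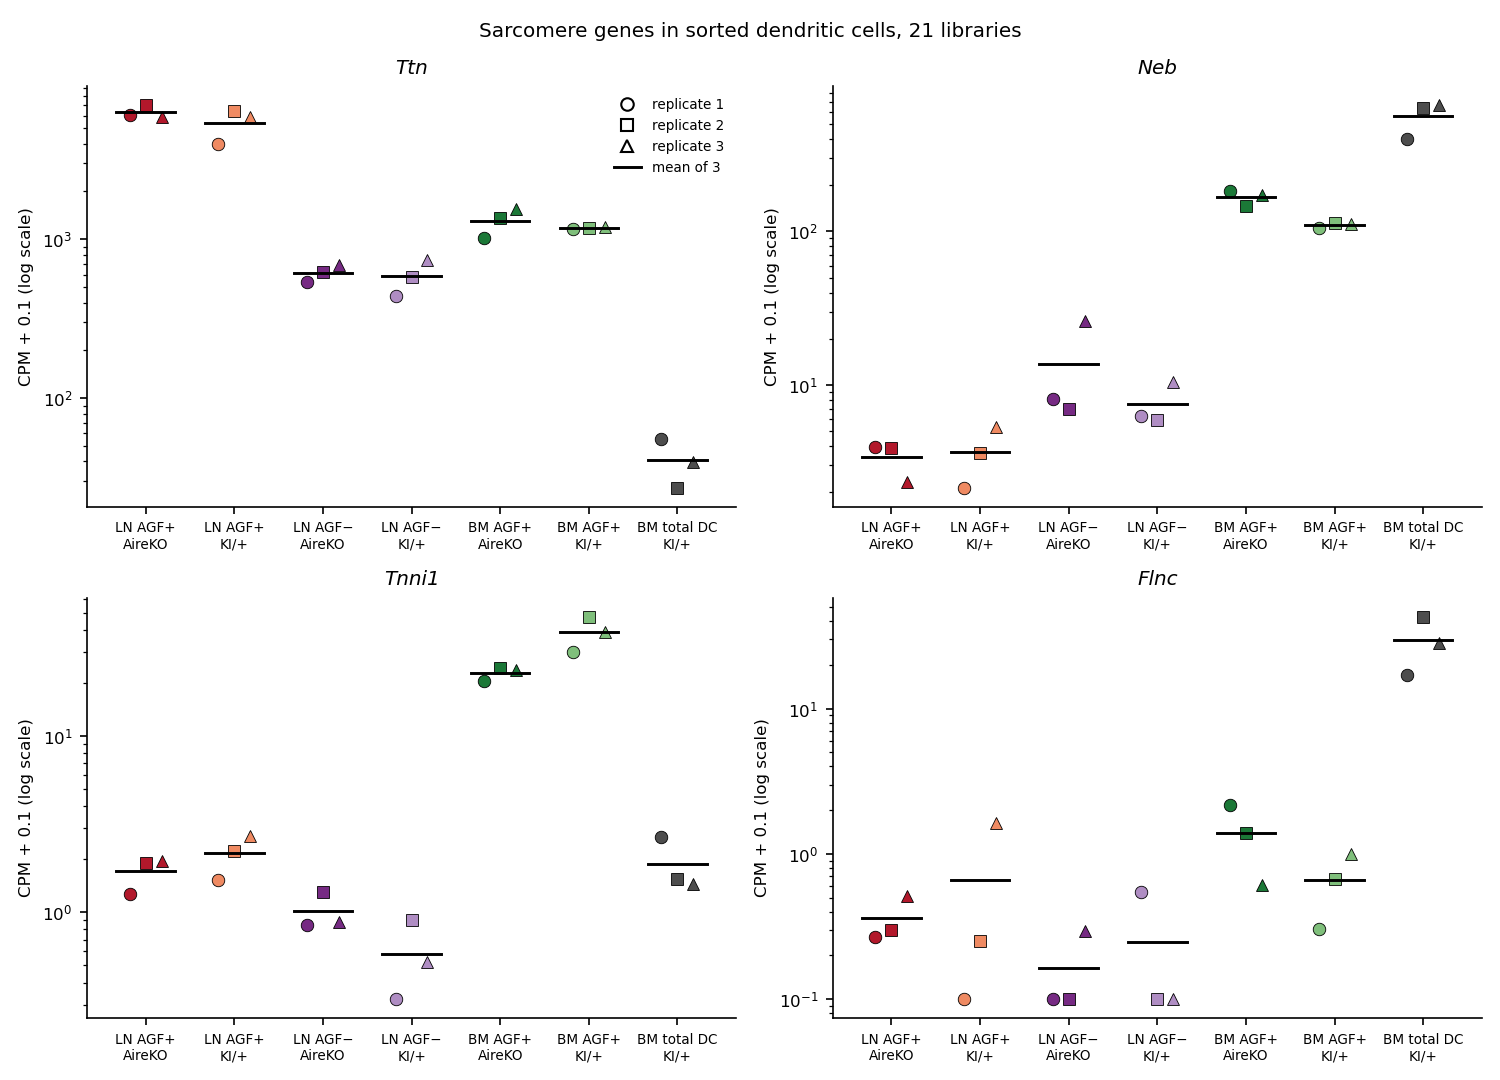
CPM plus 0.1 (log axis) of the 4 genes in each of the 21 libraries, by group, with the mean of 3 libraries as a bar and replicates 1, 2 and 3 as circles, squares and triangles. Ttn is highest in lymph node AGF+ cells (3991 to 6983 CPM) and lowest in bone marrow total DCs (27.3 to 55.2 CPM), Neb and Flnc are highest in total DCs, and Tnni1 is highest in bone marrow AGF+ cells.

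The 4 genes had different orders across the groups. In the order of group means Ttn ran lymph node AGF+, bone marrow AGF+, lymph node AGF−, bone marrow total DC, with neighbours in that order overlapping only between genotypes of the same cells. Neb ran bone marrow total DC, bone marrow AGF+, lymph node AGF−, lymph node AGF+. Tnni1 stood out in bone marrow AGF+ cells alone and Flnc in total DCs alone, and their other neighbouring groups overlapped. Over the 21 libraries, which share the 7 groups, the Pearson correlation of log2 CPM was −0.71 between Ttn and Neb, −0.74 between Ttn and Flnc, 0.76 between Neb and Flnc, 0.53 between Neb and Tnni1, 0.15 between Ttn and Tnni1 and 0.07 between Tnni1 and Flnc. Spearman's rho for these pairs was −0.62, −0.23, 0.69, 0.31, 0.37 and 0.53, so the measures differed most for Ttn and Flnc, for Tnni1 and Flnc and, by less, for Neb and Tnni1 and for Ttn and Tnni1.

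Per kilobase of exon the genes can be set beside each other and beside the other genes of the muscle lists, if the merged exons are evenly covered. Coverage along the exons was not examined. The 25 annotated transcripts of Ttn are 271 to 106824 bases long, and counts per gene do not show which were present. In lymph node AGF+ KI/+ cells Ttn had 46.5 ± 10.9 CPM per kilobase, Tnni1 0.571 ± 0.167, Neb 0.135 ± 0.0600 and Flnc 0.0595. In bone marrow AGF+ KI/+ cells Tnni1 had 10.7 ± 2.43 and Ttn 10.1 ± 0.181 CPM per kilobase, with overlapping libraries, followed by Neb at 4.14 ± 0.168. Counted over the longest transcript instead of all merged exons, Tnni1 in those cells comes to 17.9 CPM per kilobase. In total DCs Neb led with 21.3 ± 5.48 CPM per kilobase, then Flnc with 3.12, Tnni1 with 0.495 ± 0.187 and Ttn with 0.349 ± 0.120.

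Of the 164 genes in 7 lists of sarcomere and muscle genes, the highest per kilobase over all libraries were genes that nonmuscle cells also use: filamin A (Flna), which crosslinks cortical actin, with 143 CPM per kilobase, capping protein beta (Capzb) with 106, the tropomyosins Tpm4 with 101 and Tpm3 with 64.9, and alpha-actinin 1 (Actn1) with 59.6. Ttn came 19th of 164 with 18.9. In lymph node AGF+ KI/+ cells alone Ttn was close to Flna, at 63.5 ± 17.7, and to Tpm3, at 47.6 ± 1.25 CPM per kilobase. In bone marrow AGF+ KI/+ cells, Flna had 238 ± 16.5 CPM per kilobase, far above Ttn.

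**Figure D2:**
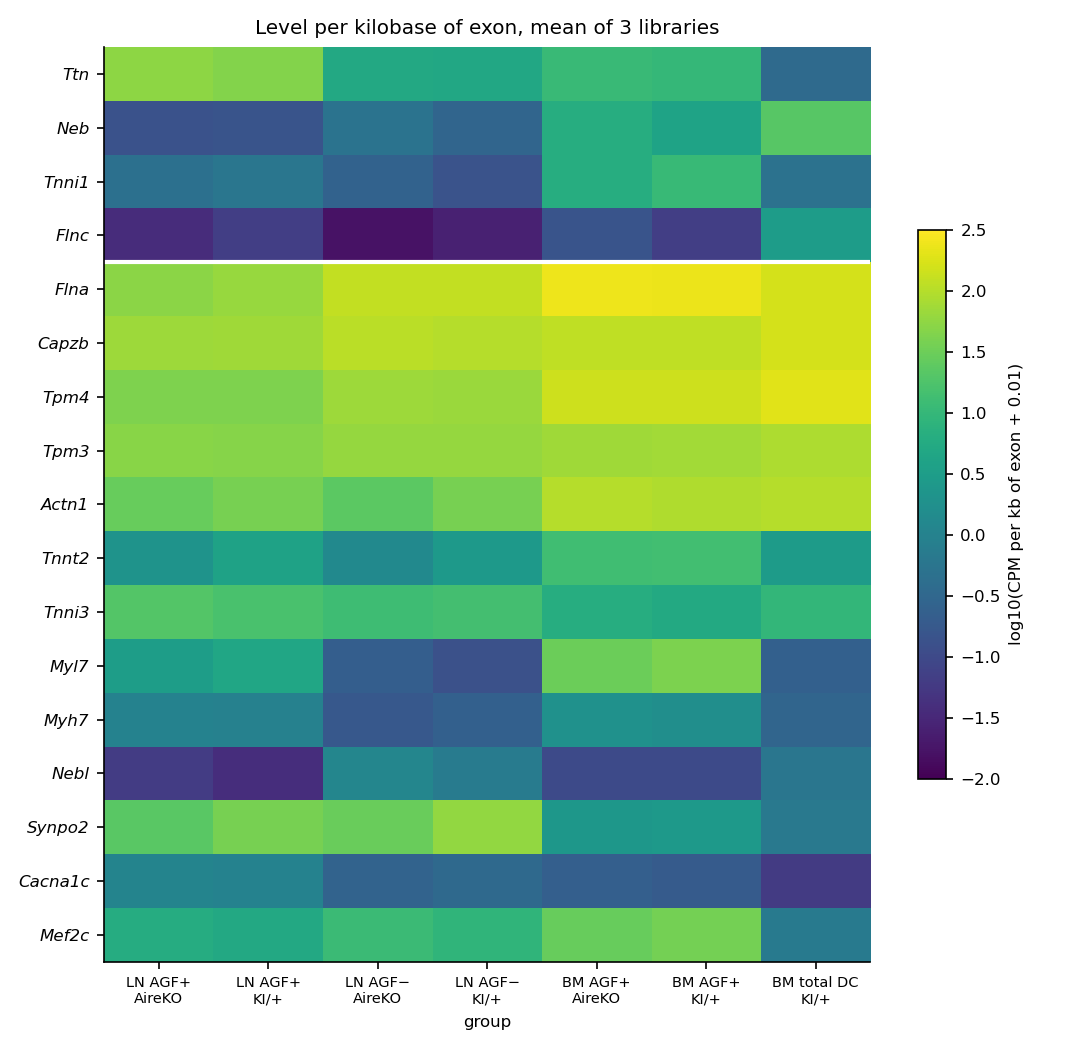
Mean CPM per kilobase of exon over 3 libraries, as log10 after adding 0.01, of the 4 genes (above the white line) and of 13 other muscle-list genes in the 7 groups. Ttn is bright in the lymph node AGF+ columns (54.0 and 46.5 CPM per kilobase) and dark in total DCs (0.349), while Flna, Capzb, Tpm4, Tpm3 and Actn1 are bright in every column.

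Some genes that define differentiated muscle fibres were at or near 0, and others were found in every library. Of 18 skeletal muscle fibre markers, myoglobin (Mb) and fast troponin C (Tnnc2) had 0 counts in all 21 libraries, and Acta1, Myl1, Myh1, Myh2, Myh4 and Pvalb had 3 to 13 counts over all 21. Others of the list, among them the fast-fibre genes Mylpf with 245 counts, Tnnt3 with 485, Tnni2 with 516 and Atp2a1 with 503, and Pygm, muscle glycogen phosphorylase, with 364, had counts in all 21 libraries. The summed level was 109 to 164 CPM in lymph node AGF+ AireKO and 101 to 173 CPM in lymph node AGF+ KI/+, against 71.1 to 92.8 CPM in AGF− AireKO and 109 to 119 CPM in AGF− KI/+ libraries. In bone marrow it was 270 to 329 CPM in AGF+ AireKO and 264 to 300 CPM in AGF+ KI/+, against 58.4 to 72.9 CPM in total DCs. Eno3, muscle enolase, which other cells also make, carried most of each sum. Of the 10 cardiac markers Nppb was at 0 counts in 6 of the 7 groups, and the sum, led by Tnni3 in lymph node and Tnnt2 in bone marrow, was 144 to 156 CPM in bone marrow AGF+ AireKO and 150 to 180 CPM in bone marrow AGF+ KI/+ libraries, against 41.2 to 57.2 CPM in total DCs. The 10 epithelial markers, mostly Cdh1, summed to 142 to 210 CPM in bone marrow AGF+ KI/+ cells and 179 to 441 CPM in total DCs, where Neb and Flnc were highest, and the 16 smooth muscle and stromal markers, led by Pdgfrb in AGF+ cells and Myh11 in total DCs, summed to 31.6 to 38.9 CPM in AGF+ KI/+ cells and 7.25 to 15.8 CPM in total DCs. In the same cells the 8 B cell markers summed to 211 to 259 CPM in AGF+ KI/+ libraries and 27.4 to 38.4 CPM in total DC libraries. Of 6 tested, 5 rose and 1 fell (edgeR's quasi-likelihood test, adjusted p under 0.05). In that comparison 44.4% of 15503 genes were called, 22.8% higher and 21.6% lower. Of 6 skeletal muscle fibre markers tested 4 rose and 0 fell, and of 6 cardiac markers 4 rose and 1 fell. Nothing particular to B cell markers is read from these counts. The 8 endothelial markers summed to 110 to 162 CPM in AGF+ KI/+ and 35.7 to 64.8 CPM in total DC libraries, the 10 T and NK cell markers to 33.9 to 41.7 CPM in AGF+ KI/+ and 13.5 to 18.98 CPM in total DC libraries, and the 12 neutrophil and erythroid markers to 67.2 to 75.3 CPM in AGF+ KI/+ and 21.9 to 132 CPM in total DC libraries. Their part in the levels was not tested.

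The rest of the sarcomere was then asked for the same reporter comparison, over 160 muscle-list genes other than the 4, with edgeR's quasi-likelihood test and Benjamini-Hochberg adjustment over all genes tested (adjusted p under 0.05). In lymph node AGF+ KI/+ cells 8 of 75 tested list genes rose and 23 fell relative to AGF− KI/+ cells, where 21.1% of 15884 genes were called (10.1% higher, the others lower), and the median log2 difference was −0.01 against 0.01 for all genes. In AireKO 9 rose and 21 fell of 75, where 24.7% were called (11.4% higher and 13.3% lower), with a median of −0.11 against 0.01. Tmod2, a tropomodulin that caps actin pointed ends, had 106 ± 10.4 CPM in AGF+ and 22.7 ± 9.43 CPM in AGF− AireKO cells (adjusted p = 1.3e-05), and 103 ± 12.5 and 33.6 ± 5.12 CPM in AGF+ and AGF− KI/+ cells (adjusted p = 0.000185). Cacna1c, the pore subunit of the L-type calcium channel, had 22.1 ± 7.39 CPM in AGF+ and 5.63 ± 0.667 CPM in AGF− AireKO cells (adjusted p = 9.2e-05), and Chrnb1, a subunit of the muscle acetylcholine receptor, 24.5 ± 3.03 CPM in AGF+ and 10.6 ± 1.02 CPM in AGF− KI/+ cells (adjusted p = 0.00029).

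The Z-disc list is named among the 7 muscle lists after the values were seen. In it 8 of 13 tested genes fell and 0 rose in lymph node AGF+ cells of each genotype. Its medians were −0.53 in AireKO and −0.54 in KI/+, against 0.01 for all genes in each. Of all genes, 13.3% were called lower in AireKO, and 21.1% in either direction in KI/+ (10.1% higher). Excitation and calcium handling went both ways: of 15 tested, 5 rose and 3 fell in AireKO, and 3 rose and 2 fell in KI/+. Nothing particular to the Z-disc list is read from its counts. In the same comparisons markers of lymphocytes fell: 9 of 10 T and NK cell markers in each genotype, with medians of −3.31 in AireKO and −3.57 in KI/+, and 8 of 8 B cell markers in AireKO and 7 of 8 in KI/+, with medians of −4.54 in AireKO and −3.89 in KI/+. Their part in the falls of the muscle lists was not tested. Of the other lists, Atp2a3, a sarcoplasmic calcium pump that blood cells also use, had 32.4 ± 5.41 CPM in AGF+ and 225 ± 64.3 CPM in AGF− AireKO cells (adjusted p = 6.9e-07), and 31.3 ± 2.97 and 182 ± 16.3 CPM in AGF+ and AGF− KI/+ cells (adjusted p = 2.0e-06). Nebl, nebulette, the short relative of nebulin, had 0.819 ± 0.0165 CPM in AGF+ and 17.4 ± 7.30 CPM in AGF− AireKO cells, on 13 counts over 3 AGF+ libraries and 281 over 3 AGF− libraries. It passed the filter on low counts through the AGF− libraries, so its call says little beyond these counts. Of the called list genes, 4 of the 21 that fell in AireKO and 4 of the 23 that fell in KI/+ stayed under 10 counts in every AGF+ library. Of those that rose, 2 of 9 in AireKO and 2 of 8 in KI/+ stayed under 10 counts in every AGF− library. Flna, of the Z-disc list and the nonmuscle relative of Flnc, had 481 ± 20.9 CPM in AGF+ and 1137 ± 284 CPM in AGF− AireKO cells (adjusted p = 0.00064), and 597 ± 166 and 1129 ± 197 CPM in AGF+ and AGF− KI/+ cells (adjusted p = 0.0060). Pdlim1, a Z-disc adaptor of the PDZ-LIM family, fell in each genotype and Pdlim7 was among the 4 smallest adjusted p-values of those that fell in AireKO. Without the libraries numbered 2, the KI/+ count was 18 (5 that rose, 13 that fell), of which 16 were among the 31. It was 20 without replicate 2 of AGF+ KI/+, 19 without replicate 1 of AGF− KI/+ and 19 without replicate 3 of AGF− KI/+. Shares of all genes called without these libraries are not given here, so no change particular to the lists is read.

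In bone marrow list genes were called in each direction. Relative to total DCs, 31 of 75 tested list genes rose and 20 fell in AGF+ KI/+ cells, where 44.4% of 15503 genes were called (22.8% higher and 21.6% lower). Of the 31, 16 stayed under 10 counts in every total DC library and so passed the filter through AGF+ cells, as 3 of the 20 did through total DCs, and no excess of rises is read from the counts. Mef2c, a transcription factor of muscle and of lymphoid and plasmacytoid cells, had 560 ± 127 and 10.6 ± 3.62 CPM in AGF+ cells and total DCs (adjusted p = 2.0e-07). Ryr3, a calcium release channel, had 57.0 ± 9.15 and 3.53 ± 1.69 CPM (adjusted p = 2.8e-06), and Tnnt2, cardiac troponin T, 104 ± 9.75 and 22.9 ± 6.35 CPM (adjusted p = 6.1e-06), in AGF+ cells and total DCs in each case.

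Thick filament genes called in bone marrow, named after their values were seen, were the myosin light chains Myl7 and Myl4, the slow and cardiac heavy chain Myh7 and the myosin-binding proteins Mybpc1 and Mybpc2, all higher in AGF+ cells. Of these, all but Myh7 stayed under 10 counts in every total DC library. Myh7 had 14.5 ± 3.95 CPM in AGF+ cells and 2.40 ± 0.891 CPM in total DCs (adjusted p = 5.2e-05). Myl7, the atrial light chain, had 373 counts over 3 AGF+ libraries and 2 counts over 3 total DC libraries, a 175-fold ratio with a 95% counting interval of 48.1 to 1449. In lymph node Myl7 had 29 counts in AGF+ and 2 in AGF− AireKO cells, a ratio of 14.9 (3.77 to 129), and 47 counts in AGF+ and 1 in AGF− KI/+ cells, a ratio of 38.1 (6.51 to 1537). The falls were led by Pdlim5, with 221 ± 26.9 CPM in AGF+ cells and 612 ± 95.3 CPM in total DCs (adjusted p = 5.9e-05), Nebl with 1.42 ± 0.482 and 8.57 ± 1.10 CPM, under 10 counts in every AGF+ library, vinculin (Vcl), which ties actin to the membrane, with 29.9 ± 3.83 and 75.1 ± 2.57 CPM (adjusted p = 0.00030), and Capza2, an actin capping subunit, with 285 ± 25.4 and 510 ± 78.6 CPM (adjusted p = 0.00035).

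**Figure D3:**
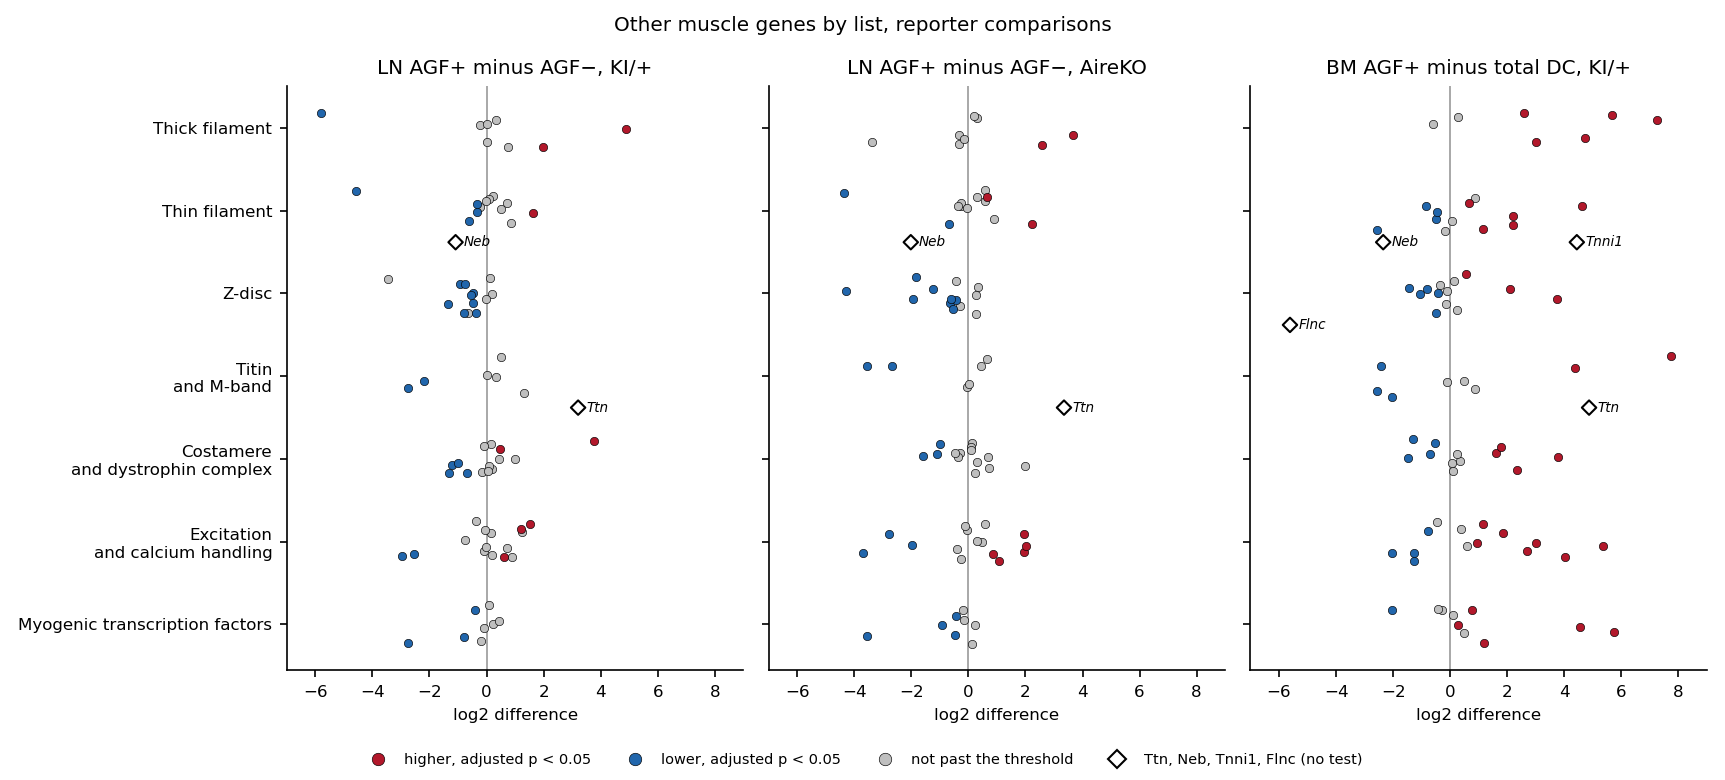
Log2 difference of the other muscle-list genes that were tested, by list, in the 3 reporter comparisons, with genes past adjusted p 0.05 in colour and Ttn, Neb, Tnni1 and Flnc as open diamonds, shown without a test. In bone marrow 31 list genes lie to the right and 20 to the left among those called, and in lymph node 8 and 23 in KI/+ and 9 and 21 in AireKO.

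Of 66 list genes tested in each tissue, 20 were called in each of the KI/+ reporter comparisons, which are 74.1% of the lymph node calls and 46.5% of the bone marrow calls among them. Over all 14325 genes tested in each tissue, 1855 were called in each, which are 64.5% of the lymph node calls and 30.01% of the bone marrow calls, and nothing particular to the lists is read from the overlap. Of the 20, 6 were higher and 10 lower in AGF+ cells in each tissue, and 4 had opposite directions. The 6, named after their values were seen, were Tmod2, Chrnb1, Cacna1c, Myl7, Myh7 and Dtnb. Of these, Myl7 stayed under 10 counts in every AGF− KI/+ and every total DC library, and Cacna1c in every total DC library. There they passed the filter through AGF+ cells, so these calls say little beyond the counts. Among the 4 were Mef2c, Flna and Mef2a, each higher in AGF+ cells in bone marrow and lower in lymph node. Ttn was higher in AGF+ cells of each tissue. For the transcription factor Mef2c, the lymph node reporter difference minus that in bone marrow was −6.50 ± 0.33 (SE) on the log2 scale. Its adjusted p was 5.3e-11 (edgeR's quasi-likelihood test), for a gene picked by its opposite calls in these same libraries.

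**Figure D4:**
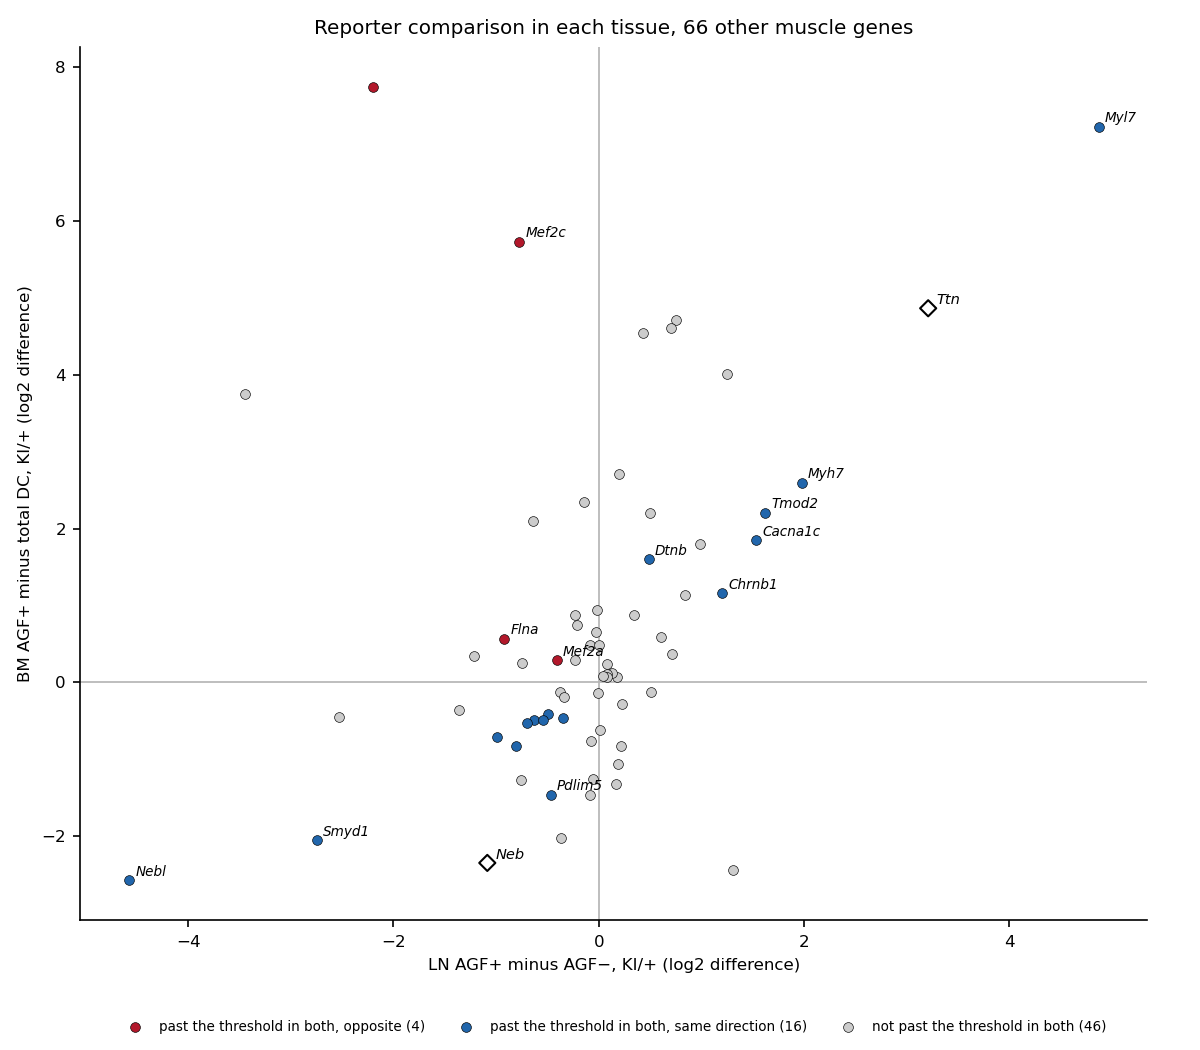
Log2 difference between AGF+ cells and AGF− cells in lymph node (horizontal) and between AGF+ cells and total DCs in bone marrow (vertical), KI/+ mice, for the 66 list genes tested in each tissue, with Ttn and Neb as open diamonds. The 4 red points were called in opposite directions, and 3 of them are labelled, and Ttn lies at 3.21 and 4.87.

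Between the tissues, AGF+ cells differed at most list genes, as at most genes. In lymph node relative to bone marrow AGF+ cells, 14 of 86 list genes rose and 37 fell in AireKO, where 51.4% of all tested genes were called (25.7% higher and 25.7% lower), and 18 rose and 35 fell in KI/+, where 54.2% were called (27.2% higher and 27.1% lower). The medians were −0.57 and −0.45, against 0.04 for all genes in each genotype. List genes near 0 counts in AGF+ cells of either tissue can pass the filter only through other groups. Their number among these calls was not counted, and no excess of falls is read from the counts or the medians. Synpo2, a Z-disc protein also called myopodin, had 294 ± 30.1 CPM in lymph node and 31.1 ± 4.64 CPM in bone marrow AGF+ AireKO cells (adjusted p = 7.0e-07), and 488 ± 190 and 35.5 ± 6.39 CPM in KI/+ (adjusted p = 8.6e-08). Cacna1c and Tnni3, cardiac troponin I, were also higher in lymph node in each genotype, with Tnni3 at 40.5 ± 7.85 and 13.1 ± 2.88 CPM in AireKO (adjusted p = 2.7e-06). Tpm4 had 95.5 ± 12.9 and 315 ± 33.9 CPM in lymph node and bone marrow AGF+ AireKO cells (adjusted p = 2.4e-09), and Mef2c 82.1 ± 15.3 and 560 ± 127 CPM in lymph node and bone marrow AGF+ KI/+ cells (adjusted p = 1.8e-09). These comparisons share their AGF+ groups with the reporter comparisons above.

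No list gene was called between genotypes: edgeR's quasi-likelihood test gave 0 of 75 in lymph node AGF+ cells, 0 of 75 in lymph node AGF− cells and 0 of 75 in bone marrow AGF+ cells, where 0.0126%, 0.00630% and 0.0129% of all genes were called. In bone marrow these were 0.00645% higher and 0.00645% lower, in lymph node AGF+ cells 0.00630% each way. At an unadjusted p under 0.05 the counts were 7, 14 and 1. The shares of all genes at that unadjusted threshold are not given here, so no genotype effect on the lists is read from these counts. DESeq2 and limma voom also gave 0 adjusted calls in each comparison. With no filter on low counts edgeR called 2 list genes in lymph node AGF+ and 4 in lymph node AGF− cells, and 2 in AGF− cells without replicate 2 of AireKO. Shares of all genes called under these settings are not given here, so nothing particular to the lists is read from them. In bone marrow AGF+ cells the libraries of Neb and of Tnni1 did not overlap between genotypes, in opposite directions. How many of all genes part in this way was not counted, so nothing is read from it.

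Genes next to the 4 on the chromosome moved in both directions. For each, the nearest protein-coding genes on either side were taken, up to 2 a side among those tested. In bone marrow, AGF+ against total DC, 44.4% of all 15503 genes were called (22.8% higher and 21.6% lower). Nothing particular to neighbours is read from their counts. In bone marrow, AGF+ against total DC, Ccdc141, 27.4 kb from Ttn, rose (5.98 ± 1.47 CPM in AGF+ cells and 2.18 ± 0.798 CPM in total DCs, adjusted p = 0.0037), while Plekha3, 7.15 kb away on the other side, fell (80.9 ± 4.17 and 105 ± 10.4 CPM, adjusted p = 0.021), as did Sestd1, 198 kb away (79.1 ± 9.60 and 239 ± 23.7 CPM, adjusted p = 6.6e-05). In lymph node 0 of the 3 tested neighbours of Ttn were called in either genotype, where 24.7% of all genes were called in AireKO and 21.1% in KI/+. In bone marrow 3 of the 4 neighbours of Neb fell: Nmi, 163 kb away (47.5 ± 4.53 CPM in AGF+ cells and 70.7 ± 14.6 CPM in total DCs, adjusted p = 0.043), Cacnb4, a calcium channel subunit 49.8 kb away (4.50 ± 1.58 and 16.7 ± 7.32 CPM, adjusted p = 0.0012), and Arl5a. Arl5a, 19.5 kb from Neb, encodes a small GTPase and fell with the reporter in each tissue, with 153 ± 13.6 CPM in AGF+ and 298 ± 20.8 CPM in AGF− KI/+ cells of lymph node (adjusted p = 0.00065) and 242 ± 41.4 and 517 ± 114 CPM in AGF+ cells and total DCs of bone marrow (adjusted p = 0.0012).

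Tnni1 lies beside Tnnt2, 25.4 kb away, and Lad1, 7.61 kb away, which encodes the filament-anchoring protein ladinin. In bone marrow Tnnt2 rose as given above, and Lad1 rose to 595 ± 35.3 CPM in AGF+ cells, against 225 ± 44.8 CPM in total DCs (adjusted p = 1.9e-05). Csrp1, a LIM-domain actin regulator 27.2 kb away on the other side, rose in bone marrow (287 ± 2.79 CPM in AGF+ cells and 175 ± 19.3 CPM in total DCs, adjusted p = 0.00020) and in lymph node KI/+ cells (115 ± 12.3 CPM in AGF+ and 72.3 ± 7.82 CPM in AGF−, adjusted p = 0.0086). It also rose in lymph node AireKO cells (109 ± 19.7 CPM in AGF+ and 62.5 ± 11.1 CPM in AGF−, edgeR's quasi-likelihood test, adjusted p = 0.0023). The fourth neighbour, Phlda3, was not called in any of the 3 reporter comparisons. Atp6v1f, a proton pump subunit 5.83 kb from Flnc, fell in bone marrow AGF+ cells (37.6 ± 3.66 CPM, against 68.5 ± 10.95 CPM in total DCs, adjusted p = 0.0010). Kcp, 11.3 kb from Flnc, also fell in bone marrow AGF+ cells (25.6 ± 6.95 CPM, against 77.1 ± 1.86 CPM in total DCs, adjusted p = 0.00021), the direction of Flnc, in a comparison in which 44.4% of genes were called. Calu, 56.1 kb from Flnc, was not called there (52.2 ± 4.37 CPM in AGF+ cells and 50.4 ± 4.57 CPM in total DCs, edgeR's quasi-likelihood test, adjusted p = 0.71).

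**Figure D5:**
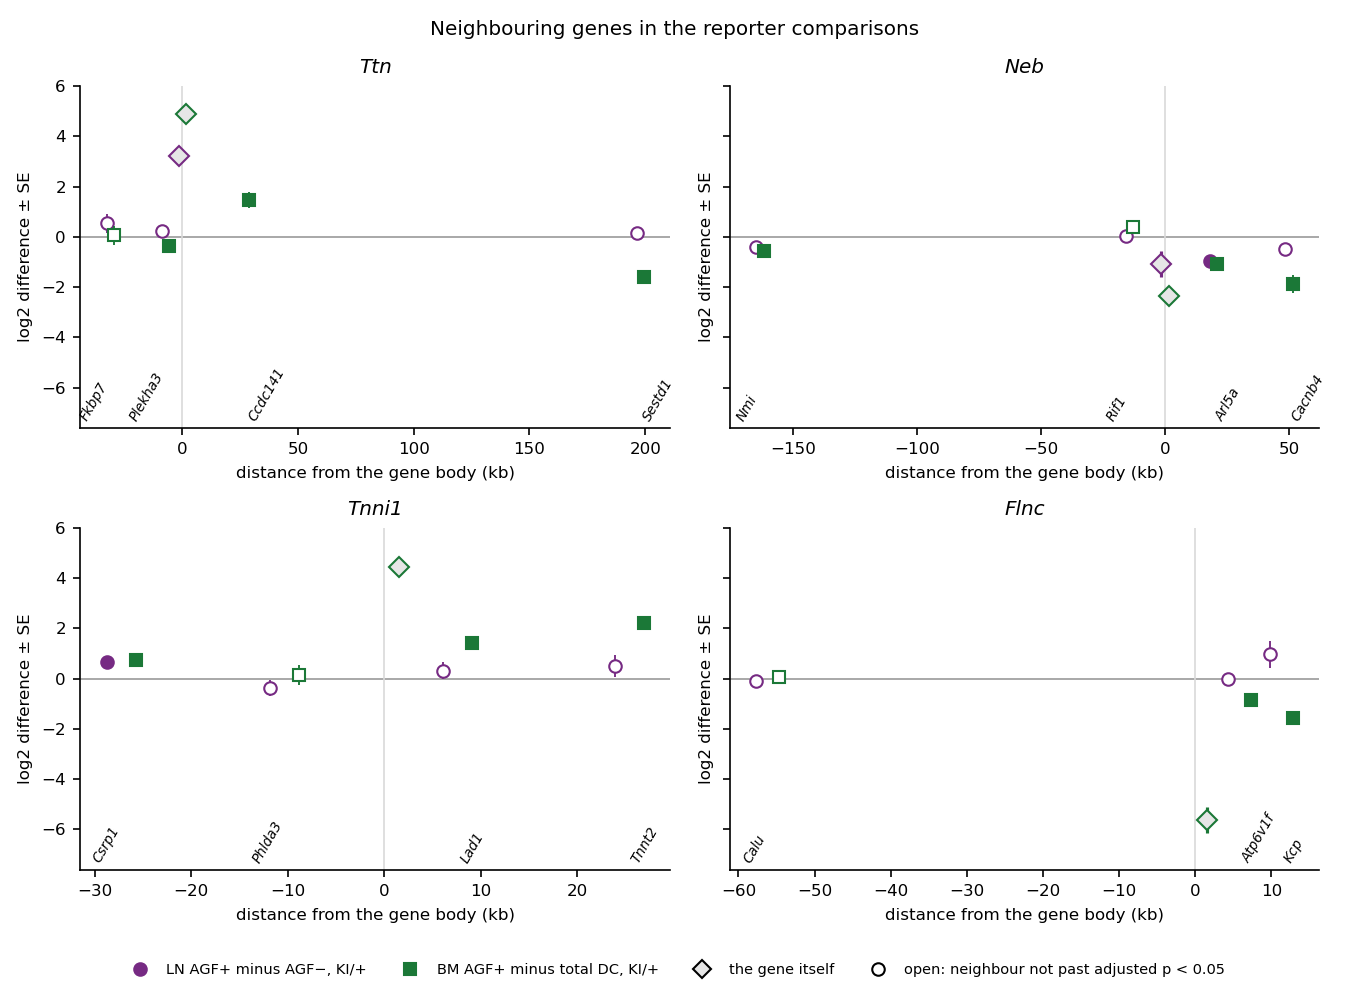
Log2 difference ± SE of the nearest tested protein-coding genes on each side of Ttn, Neb, Tnni1 and Flnc, by distance from the gene body in kilobases, in the KI/+ reporter comparisons of lymph node (circles) and bone marrow (squares), with the gene itself as a diamond at 0. Filled symbols passed adjusted p 0.05, and Tnni1 has 3 filled bone marrow squares above 0, in a comparison in which 44.4% of all genes were called (22.8% higher).

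Overlapping annotated genes add little to these counts. The antisense gene Gm13938 shares 0.388% of the Ttn exon bases and had 1 count in all 21 libraries, and Gm13522, antisense to Neb, shares 45 bases and had 55 counts. No source names the strand setting of the counting, so reads from such stretches cannot be assigned.

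The genes whose log2 CPM followed each of the 4 most closely over the 21 libraries, among 12847 named genes, were taken by Pearson correlation, as a description of libraries that share 7 groups. For Ttn they were Bcl7a (0.98), a chromatin remodelling subunit, the glutamate receptor subunit Gria3 (0.98), Rhbdl3 (0.97), Ift140 (0.97), an intraflagellar transport protein, and Chd3 (0.97), a chromatin remodeller. For Neb they were Tmem131 (0.98), the myosin light chain Myl6 (0.98), Tarm1 (0.98), Nampt (0.98) and Adgrf5 (0.98). For Tnni1 they were the homeobox factor Meis1 (0.98), Slc43a3 (0.97), Cadps2 (0.97), Syde2 (0.97) and Dennd4a (0.97), and for Flnc Esyt2 (0.95), Vps45 (0.94), Vps26c (0.94), Pex19 (0.94) and Gpt2 (0.93). None of the 20 is a member of the sarcomere lists. Gria3 had 525 and 446 CPM on average in lymph node AGF+ AireKO and KI/+ cells, and 28.4 CPM in total DCs, the ends of the order of Ttn. By Spearman's rho, 0, 0, 0 and 1 of the 5 genes of Ttn, Neb, Tnni1 and Flnc stayed among the top 5, so the names depend on the measure.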

How the data were processed

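RNA of 21 libraries was counted per gene by the authors and deposited as raw counts. Among tools, the submitters' processing notes list HTSeq 0.11.2 with the aligner STAR 2.7.3a and the build mm10, further edgeR 3.38.1, the trimmer fastp 0.20.0, Picard 2.21.1 and SAMtools 1.9, without the annotation release, the strand setting or the treatment of multi-mapped reads. Per the labels' protocols libraries were made from 1 ng RNA. A deposited normalized table equals the counts times 1 factor per library and was not used.

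Counts were tested with edgeR 4.0.16 (R 4.3.3; TMM, expression filter by group, quasi-likelihood F test, Benjamini-Hochberg adjustment over all genes) in 12 lymph node, 9 bone marrow or, between tissues, all 21 libraries. For some comparisons the same test was also run on simulated counts, with changes planted in some genes. These used the mean of each gene over all groups of a fit and its trended dispersion. Low-count genes held no planted change, and no result of the simulation is used here. Groups came from the sample titles. DESeq2 1.42.0 and limma 3.58.1 (voom), other scalings and filters, the replicate number as a block and leaving out libraries were alternatives. Same-numbered libraries deviated together (r over 0.1 for every number) in 5 of 8 comparisons. Correlations used log2 CPM with a prior count of 2. Lengths came from GENCODE vM21, and 241 IDs matched no symbol. Intervals and floors (3 counts) cover counting error only.

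The 4 genes and all lists were chosen with earlier results of these data known. Named beside them are Aire, the 4 called list genes a direction with the smallest adjusted p, the 5 highest list genes per kilobase, the top markers of each cell type list, neighbours, and the 5 genes most alike. Flna in lymph node, Myl7 there, and the genes said to be named after their values were seen fall outside this rule. Some list genes that this rule names are not reported here.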

Additional observations from a re-analysis of the deposited data

Results flagged for a closer look

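Of the 66 muscle-list genes tested in each tissue, 4 had reporter differences of opposite direction in lymph node and bone marrow of KI/+ mice. The lymph node difference minus the bone marrow difference was tested with edgeR's quasi-likelihood test over all 21 libraries. This test was added after the data were examined and called 21% of genes. The 4 were picked by opposite calls in these same libraries, so a small p was close to given and adds no support. Values of 3 of them are given. The cells that AGF+ cells are set against were gated differently in each tissue, which cannot be told apart from the tissue.

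Mef2c had 65.6, 95.7 and 84.9 CPM in lymph node AGF+ KI/+ cells and 106, 147 and 168 CPM in lymph node AGF− KI/+ cells. In bone marrow Mef2c had 429, 569 and 682 CPM in AGF+ KI/+ cells and 11.7, 13.5 and 6.56 CPM in total DCs, and the lymph node difference minus the bone marrow difference was −6.50 ± 0.33 on the log2 scale (SE; adjusted p = 5.3e-11).

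For Flna this difference of differences was −1.48 ± 0.26 (SE; adjusted p = 0.00035), from −0.92 in lymph node and 0.57 in bone marrow. Mef2a, a relative of Mef2c, gave −0.69 ± 0.16 (SE; adjusted p = 0.0043), from −0.41 in lymph node and 0.29 in bone marrow, each near the threshold on its own (adjusted p = 0.025 in lymph node and 0.047 in bone marrow).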

How the results depend on the processing

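Of 72 counts of called list genes under other tools, scalings and filters, the replicate block and the libraries numbered 2 left out, 69 stayed within 1.5 times. The exceptions were 18 in lymph node KI/+ without the libraries numbered 2, an alternative chosen after seeing the data, and, with no filter on low counts, 2 between genotypes in lymph node AGF+ and 4 in lymph node AGF− cells. The causes were not tested. With the replicate block the counts were 35 in lymph node KI/+, 34 in lymph node AireKO, 55 in bone marrow and 55 in each tissue comparison, and 0 between genotypes. The numbers of list genes tested and the shares of all genes called under these alternatives are not given here. No change particular to the lists is therefore read from these counts. The log2 differences of Ttn, Neb, Tnni1 and Flnc moved by less than the spread between replicates under these alternatives, though Flnc between the tissues in KI/+ was 0.20 without the libraries numbered 2, against −0.26, and Neb between genotypes in lymph node AGF+ cells was 0.0020 by limma voom, against −0.09.

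Leaving out 1 library at a time gave 19 to 26 calls in lymph node KI/+, 24 to 32 in lymph node AireKO, 47 to 59 in bone marrow and 0 to 2 between genotypes in lymph node AGF− cells. These counts too are given without the shares of all genes called. Neb in lymph node AireKO then ranged from −2.34 to −1.17, and its genotype difference in lymph node AGF− cells from −0.014 to 1.15, the sign turning without replicate 3 of AGF− AireKO. Values near 0 also changed sign: Flnc between the tissues in KI/+ (−2.56 to 0.35), Ttn between genotypes in lymph node AGF− cells (−0.11 to 0.27) and Neb between genotypes in lymph node AGF+ cells (−0.38 to 0.25). Over the longest transcript, 7 of 7 Tnni1 group levels per kilobase moved beyond 1 SD, as did 2 for Neb and 1 for Ttn. Depth limits Flnc outside total DCs and Tnni1 in lymph node, and 3 libraries a group limit every estimate of spread.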
